A study of Mus musculus with 4 samples.

Results

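The TGF-beta ligands, their receptors and the proteins that hold the ligands latent were followed across infarcted and control mouse heart. The set holds 10 genes, taken by symbol from the 21885 genes in the count tables: the ligand genes Tgfb1, Tgfb2 and Tgfb3, the activin subunit gene Inhba, the receptor genes Tgfbr1 and Tgfbr2, and the latent TGF-beta binding protein (LTBP) genes Ltbp1, Ltbp2, Ltbp3 and Ltbp4. All 10 were found, each under 1 gene identifier. Spatial RNA counts came from Visium arrays, on which polyadenylated RNA of a tissue section is captured near its 3' end on a grid of barcoded spots, and 1 spot can lie over several cells. The 4 sections, 1 per heart and 10 µm thick, were 1 control heart without infarction, 1 heart at 3 days post-infarction (dpi) and 2 hearts at 5 dpi. All mice were of the genotype Collagen1a1-GFP+, which carries GFP under the promoter of a collagen gene as a reporter of fibroblasts, and were 8 to 12 weeks old. Infarction was made by permanent ligation of the left anterior descending coronary artery. The labels name the control and 3 dpi hearts female, and 1 heart female and 1 male at 5 dpi.

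TGF-beta ligands are made as precursors that stay bound to their own propeptide after cleavage. This latent complex is usually linked to an LTBP, which anchors it to fibrillin fibers of the extracellular matrix until integrins, thrombospondin or proteases release the ligand. Released TGF-beta binds TGFBR2, which recruits and phosphorylates TGFBR1, and TGFBR1 in turn phosphorylates the receptor SMADs. Activin A, a dimer of the Inhba product, uses its own receptors and the same receptor SMADs. LTBP1, LTBP3 and LTBP4 can carry latent TGF-beta, whereas LTBP2 shares their domain plan but does not bind it. In the infarcted heart the pathway is known for the turn of fibroblasts into matrix-producing myofibroblasts and for scar formation.

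A UMI is a molecular tag that counts 1 captured RNA molecule. Levels are given as CPM, the UMIs of a gene per 1000000 non-mitochondrial UMIs of the same spots, with exact Poisson 95% intervals that cover counting error only. UMIs captured at the 3' end do not scale with transcript length. After filters on depth, 1146, 1741, 1535 and 1423 spots were kept in the control, 3 dpi, 5 dpi labelled female and 5 dpi labelled male sections, with 3742105 to 9540940 non-mitochondrial UMIs. The control and 3 dpi groups hold 1 section each, so section levels have no test. Y-linked UMIs went against the sex labels at 5 dpi, 704 in the female-labelled section and 1 in the male-labelled section, and sections are therefore named by label and no difference between sexes is drawn. The share of UMIs from 12 cardiomyocyte genes was 10.1% in control tissue, 4.53% at 3 dpi, 1.98% in the female-labelled and 3.71% in the male-labelled 5 dpi section. IZ, the infarct zone, holds connected spots with a low cardiomyocyte share, and border zone 2 (BZ2) holds the spots within 2 steps of it, border zone 1 (BZ1) those at 3 to 4 steps, and remote zone (RZ) the spots farther out. Spots with a low share outside the patches of IZ were in no zone, 23 at 3 dpi, 41 in the female-labelled and 10 in the male-labelled section. The 9 fibroblast markers summed to 1270 CPM in the control, 3522 to 4807 CPM in RZ and 14180 to 26010 CPM in IZ. The 10 macrophage markers summed to 990 CPM in the control, 1679 to 2201 CPM in RZ and 8634 to 13340 CPM in IZ. None of these 19 markers was at 0 in any section or zone. More cells of a type and more RNA per cell cannot be told apart in such sums.

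All 3 TGF-beta ligand genes and Inhba were above the control in each infarcted section, and Tgfb3 showed the widest range of the 3 ligands. Tgfb1, the ligand that blood and immune cells also make, was at 35.01 CPM in control tissue, 100.3 at 3 dpi, 89.8 in the female-labelled and 85.8 in the male-labelled 5 dpi section. Among the infarcted sections Tgfb1 was highest at 3 dpi, whose interval of 93.6 to 107 CPM lay above that of the male-labelled section (79.6 to 92.3 CPM) and overlapped that of the female-labelled one (83.9 to 96.04 CPM). Tgfb2 was at 5.61 CPM in control tissue, 39.2 at 3 dpi, 39.4 in the female-labelled and 28.6 in the male-labelled 5 dpi section. Tgfb3, a ligand made largely by mesenchymal cells, was at 6.41 CPM in control tissue, 63.3 at 3 dpi, 176 in the female-labelled and 131 in the male-labelled 5 dpi section. Its fold over the control was 9.87 (6.56 to 15.5) at 3 dpi, 27.5 (18.4 to 43.1) in the female-labelled section and 20.4 (13.6 to 31.98) in the male-labelled section, with 95% counting intervals in brackets. Tgfb3 thus stood higher in both 5 dpi sections than at 3 dpi, while Tgfb1 did not. Inhba, which encodes the subunit of activin A, gave 1 UMI in the control and 162, 280 and 143 UMIs in the infarcted sections. These counts correspond to 0.267 CPM in control tissue, 19.3 at 3 dpi, 29.4 in the female-labelled and 17.2 in the male-labelled 5 dpi section. With 1 control UMI the ratios of 72.4, 109.8 and 64.4 have intervals whose lower ends were 12.8, 19.6 and 11.4.

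**Figure D1:**
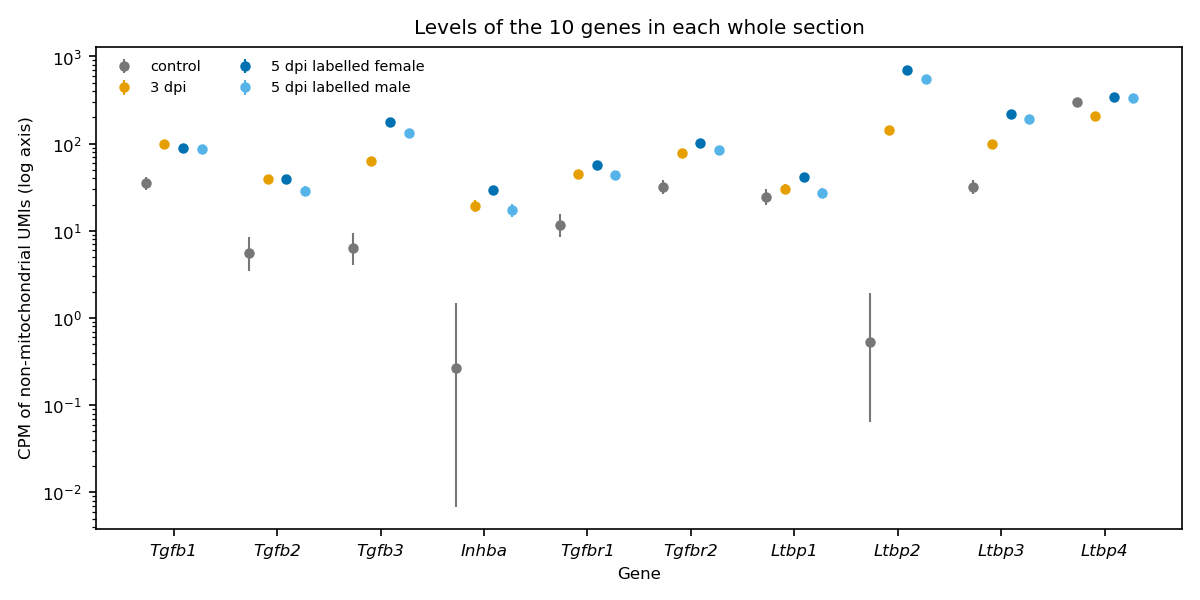
Level of each of the 10 genes (x axis) in CPM of non-mitochondrial UMIs on a log axis (y axis), 1 point per whole section, with exact Poisson 95% intervals as bars. Ltbp2 and Inhba rest on 2 and 1 UMIs in the control, and Ltbp4 and Ltbp1 are the genes whose control point lies near those of the infarcted sections.

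The LTBP genes split into those far above the control (Ltbp2, Ltbp3) and those near it (Ltbp1, Ltbp4). Ltbp2, the family member that does not carry latent TGF-beta, gave 2 UMIs in the control section and 1207, 6704 and 4617 UMIs in the infarcted ones, or 0.534 CPM in control tissue, 144 at 3 dpi, 703 in the female-labelled and 555 in the male-labelled 5 dpi section. The ratio to the control was 269.7 at 3 dpi, with a counting interval from 74.5 to 2229, and was 1315 and 1039 at 5 dpi. Ltbp3, which binds latent TGF-beta, was at 31.8 CPM in control tissue, 99.2 at 3 dpi, 219 in the female-labelled and 194 in the male-labelled 5 dpi section. Its fold over the control was 3.12 (2.57 to 3.81) at 3 dpi, 6.88 (5.72 to 8.35) in the female-labelled section and 6.1 (5.06 to 7.41) in the male-labelled section. Ltbp1, the first described carrier of latent TGF-beta, was at 24.3 CPM in control tissue, 30.6 at 3 dpi, 40.98 in the female-labelled and 27.1 in the male-labelled 5 dpi section, and its intervals at 3 dpi and in the male-labelled 5 dpi section overlapped that of the control. Ltbp4, a carrier that also takes part in elastic fiber assembly, was at 301 CPM in control tissue, 210.2 at 3 dpi, 346 in the female-labelled and 335 in the male-labelled 5 dpi section. It was the highest LTBP gene of the control and, before TMM scaling, was lower at 3 dpi and slightly higher at 5 dpi, the fold being 0.698 (0.647 to 0.753), 1.15 (1.07 to 1.23) and 1.11 (1.04 to 1.19) in order of section.

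The upstream sequences of Ltbp2 and Ltbp3, which were at least 2-fold above the control in each infarcted section, and of Ltbp4, which was not, are printed for comparison. They are the 250 bases before the RefSeq start on GRCm38.p6, read 5' to 3' on the gene's strand, in lower case with matches to CAGAC, the SMAD motif, on either strand (CAGAC or GTCTG) in capitals. The RefSeq table used here matched 9 of the 10 genes, with 13 entries in all, and Tgfb3 was not matched. The Ltbp2 stretch lies at chr12:84876492-84876741 on the minus strand, the Ltbp3 stretch at chr19:5740650-5740899 on the plus strand, and the stretch of the most upstream of 3 Ltbp4 starts at chr7:27337613-27337862 on the minus strand.
Ltbp2: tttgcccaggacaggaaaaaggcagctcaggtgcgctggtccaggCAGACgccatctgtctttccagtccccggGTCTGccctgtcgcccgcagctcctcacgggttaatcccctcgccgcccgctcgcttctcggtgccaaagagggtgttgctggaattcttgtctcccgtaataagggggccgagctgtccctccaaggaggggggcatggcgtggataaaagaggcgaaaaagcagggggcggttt
Ltbp3: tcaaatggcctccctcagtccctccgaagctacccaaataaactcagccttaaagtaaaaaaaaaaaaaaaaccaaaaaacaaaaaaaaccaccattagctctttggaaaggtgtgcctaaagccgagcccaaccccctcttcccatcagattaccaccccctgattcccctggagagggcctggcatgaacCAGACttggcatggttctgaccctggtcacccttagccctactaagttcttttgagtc
Ltbp4: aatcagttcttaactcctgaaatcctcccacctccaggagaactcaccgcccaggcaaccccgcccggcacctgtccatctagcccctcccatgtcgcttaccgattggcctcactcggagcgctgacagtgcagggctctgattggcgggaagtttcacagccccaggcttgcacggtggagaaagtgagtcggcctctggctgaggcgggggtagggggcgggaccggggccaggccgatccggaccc
The motif was found 2 times in the Ltbp2 stretch, 1 time in the Ltbp3 stretch and not in any of the 3 Ltbp4 stretches. Ltbp1, which was not 2-fold above the control in each infarcted section either, held it 1 and 2 times in its entries. Of the other genes past that limit, Tgfb1 and Inhba held it 0 times, Tgfbr1 0 and 1 times, Tgfbr2 1 time and Tgfb2 2 times. The motif thus did not follow the level over the control. It was found in 7 of the 13 entries, and 42.2% of the 32851 mouse stretches of this length hold it. The motif of the AP-1 factor, TGANTCA, was searched on both strands too, can share its last letters CA with the start of CAGAC, and was in 0 of the 13 entries against 6.75% of all stretches. A match is a run of letters in a window, and its absence says nothing about binding of a factor.

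The makeup of the ligand and LTBP UMIs differed between the control and the infarcted sections. Tgfb1 made up 74.4% (67.5 to 80.3) of the UMIs of the 3 TGF-beta ligand genes in the control, with Wilson 95% intervals in brackets, 49.5% (47.1 to 51.9) at 3 dpi, 29.4% (27.8 to 31.1) in the female-labelled 5 dpi section and 34.97% (32.9 to 37.1) in the male-labelled section. Tgfb3 made up 13.6% (9.34 to 19.5), 31.2% (29.1 to 33.5), 57.7% (55.9 to 59.5) and 53.4% (51.2 to 55.5) in the same order. Over whole sections the ligand with the most UMIs was therefore Tgfb1 in the control and at 3 dpi and Tgfb3 in both 5 dpi sections, and the order differed between zones. Tgfb1 took 55.6%, 41.3% and 54.4% in RZ and 50.3%, 28.6% and 32.6% in IZ. Within RZ the Tgfb3 share was 28.3%, 37.2% and 31.4%, and within IZ it was 30.3%, 59.6% and 56.4%. At 3 dpi the Tgfb3 share was higher in BZ2, at 45.8% (38.9 to 52.9), than in IZ, at 30.3% (27.9 to 32.8), and Tgfb1 took 37.9% in BZ2. Ltbp4 made up 84.2% (82.1 to 86.02) of the LTBP UMIs in the control and 43.4%, 26.4% and 30.1% in the infarcted sections. Ltbp2 made up 0.149% (0.041 to 0.543) in the control and 29.8%, 53.7% and 49.99% in the infarcted sections. With Ltbp2 set aside, the UMIs of the 3 genes whose products carry latent TGF-beta (Ltbp1, Ltbp3, Ltbp4) were 7.60 times those of the ligands in the control. The same ratio was 1.68 at 3 dpi and 1.98 and 2.27 at 5 dpi. In RZ it was 5.84, 4.25 and 4.36, and in IZ 1.20, 1.76 and 1.90.

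**Figure D2:**
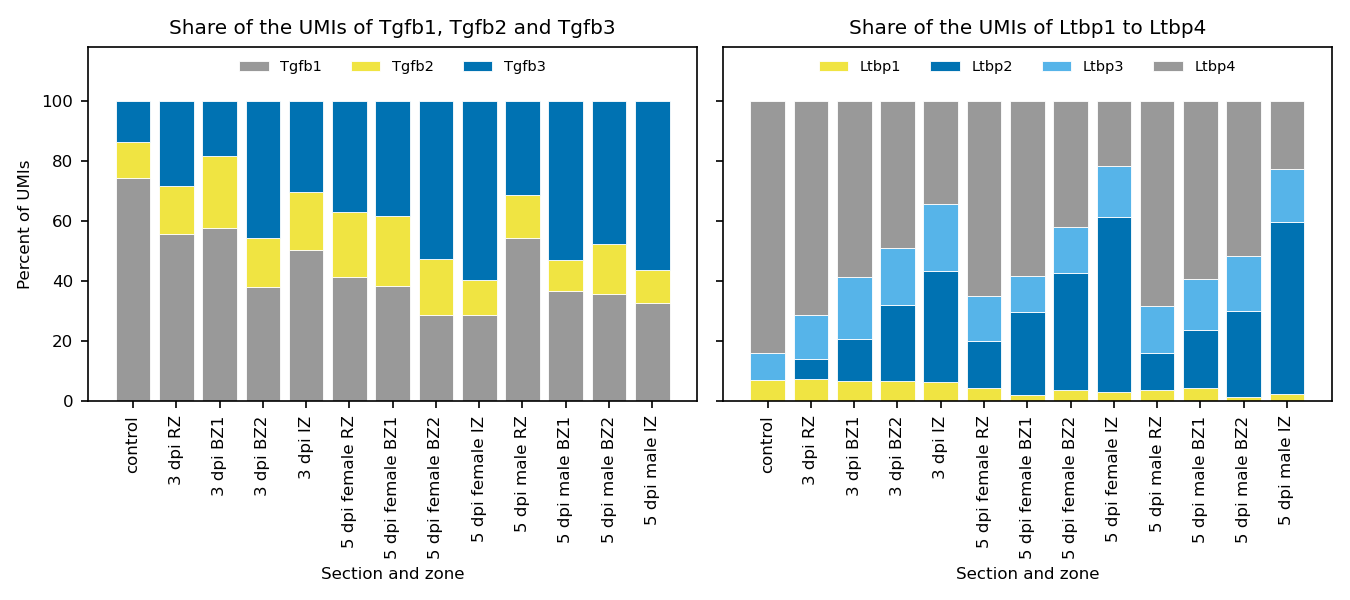
Percent of UMIs (y axis) that each gene took of the 3 TGF-beta ligand genes (left) and of the 4 LTBP genes (right) in the control and in each zone of the 3 infarcted sections (x axis, female and male as labelled). Ltbp2 takes 0.149% of LTBP UMIs in the control and 37.2%, 58.2% and 57.4% in the IZ of the infarcted sections, and Ltbp4 takes 84.2% against 34.4%, 21.6% and 22.7%.

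Both receptor genes were above the control in each infarcted section. Tgfbr1, whose product is the signaling kinase of the complex, was at 11.8 CPM in control tissue, 44.9 at 3 dpi, 57.1 in the female-labelled and 43.4 in the male-labelled 5 dpi section. Tgfbr2, whose product binds the ligand first, was at 32.1 CPM in control tissue, 78.2 at 3 dpi, 101 in the female-labelled and 83.5 in the male-labelled 5 dpi section. The fold over the control ranged from 3.69 to 4.86 for Tgfbr1 and from 2.44 to 3.15 for Tgfbr2. There were 2.73 Tgfbr2 UMIs for each Tgfbr1 UMI in the control and 1.74, 1.77 and 1.92 in the infarcted sections.

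Of the 10 genes, 8 were at least 2-fold above the control in all 3 infarcted sections and 0 were at least 2-fold below. The background was 24.6% of 9304 genes above and 5.19% below, over genes with at least 10 CPM in 1 section. Tgfb2, Tgfb3, Inhba and Ltbp2 reached that level in infarcted sections alone, which favours a call for them. The median gene of this table was itself 0.42 to 0.59 higher on the log2 scale than in the control, and TMM scaling, which sets the bulk of genes level, lowered each log2 ratio by 0.35 to 0.48. After this shift 6 of the 10 genes stayed at least 2-fold higher in each infarcted section. Tgfb1 and Tgfbr2 were then below that limit in at least 1 section, at log2 ratios of 0.88 to 1.09 and 0.85 to 1.18. Ltbp1 turned to -0.10, 0.28 and -0.20, and Ltbp4 was below the control in all 3, at -0.95, -0.28 and -0.20.

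Part of the difference from the control was already present in the remote zone. Of the 9 genes with at least 10 CPM there or in the control (all but Inhba), 4 were at least 2-fold above the control in the RZ of all 3 infarcted sections, namely Tgfb2, Tgfb3, Ltbp2 and Ltbp3, and 0 were below. Tgfb2, Tgfb3 and Ltbp2 reached 10 CPM in RZ alone. The background was 4.38% of 8581 genes above and 0.245% below. Ltbp3 and Tgfb2 lay just past the limit in the male-labelled section, at 2.03-fold and 2.08-fold. Without the 12 cardiomyocyte genes in the total, Ltbp3 there was at 70.2 CPM against 35.4 CPM in the control and no longer passed. The Tgfb2 intervals in RZ at 3 dpi, 6.88 to 19.6 CPM, and in the male-labelled section, 7.82 to 16.8 CPM, overlapped the control interval of 3.47 to 8.58 CPM. Tgfb3 in RZ was at 21.1, 53.7 and 25.8 CPM against 6.41 in the control. Ltbp2 in RZ was at 30.1, 112 and 49.96 CPM and Ltbp3 at 67.8, 109 and 64.5 CPM. Tgfb2 in RZ ranged from 11.7 to 31.04 CPM. Tgfbr1 in RZ, at 16.6, 9.55 and 17.7 CPM, lay on either side of the control. Tgfb1 was at 41.4, 59.7 and 44.7 CPM in RZ, Tgfbr2 at 41.4, 64.5 and 44.7 CPM, Ltbp1 at 34.6, 32.2 and 14.9 CPM and Ltbp4 at 333, 473 and 279 CPM. Fibroblast markers, at 3522 to 4807 CPM in RZ against 1270 CPM in the control, moved with these genes. So did macrophage markers, at 1803, 2201 and 1679 against 990 CPM, and cycling markers, at 86.6, 142 and 196 against 14.2 CPM. Mural markers were lower, at 508, 596 and 389 against 621 CPM, and erythroid markers, at 6873, 33250 and 15420 against 8667 CPM, lay on either side. The part of these lists in the result was not tested.

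In IZ Tgfb3, Ltbp2 and Ltbp3 were at least 2-fold higher in both 5 dpi sections than at 3 dpi, and 0 of the 10 genes were at least 2-fold lower, against a background of 1.62% of 9232 genes higher and 1.88% lower. Tgfb3 in IZ was at 78.9 CPM at 3 dpi, 198 CPM in the female-labelled and 196 CPM in the male-labelled section. Ltbp2 was at 186, 809 and 889 CPM, and Ltbp3 at 111, 239 and 274 CPM. Tgfb1 and Tgfb2 were lower in IZ at 5 dpi, Tgfb1 at 131, 94.9 and 114 CPM and Tgfb2 at 50.7, 38.9 and 38.4 CPM. The Tgfb1 interval of the male-labelled section, 104.4 to 123.6 CPM, overlapped that at 3 dpi, 121.2 to 141.5 CPM. Ltbp4, at 172, 300.2 and 351 CPM, was 1.74-fold and 2.04-fold higher at 5 dpi and missed the limit in the female-labelled section. Inhba was at 29.1, 35.5 and 27.3 CPM, Tgfbr1 at 58.3, 67.1 and 59.7 CPM, Tgfbr2 at 92.6, 109.5 and 105.4 CPM and Ltbp1 at 30.7, 43.2 and 35.3 CPM. With 1 heart at 3 dpi, time and heart cannot be told apart. Fibroblast markers in IZ summed to 14180 CPM at 3 dpi, 26010 CPM in the female-labelled and 23420 CPM in the male-labelled 5 dpi section. Macrophage markers there summed to 8634, 13340 and 12700 CPM, erythroid markers to 3331, 22830 and 11900 CPM and cardiomyocyte genes to 20460, 6719 and 8676 CPM, and the part of these lists in the result was not tested.

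To describe the levels without zone limits, the spots of each section were put in 5 classes of equal size by their cardiomyocyte share, class 1 being the lowest. In the infarcted sections 7 of the 10 genes (all but Tgfb2, Ltbp1 and Ltbp4) were higher in class 1 than in class 5 in 3 of 3 sections, against a background of 58.7% of 10031 genes with at least 10 CPM in 1 of these classes. Inhba was at 38.6, 26.8, 10.6, 3.93 and 0.908 CPM from class 1 to class 5 at 3 dpi, 44.9, 34.2, 37.97, 12.6 and 2.41 in the female-labelled 5 dpi section and 32.2, 26.8, 9.18, 4.18 and 1.69 in the male-labelled section. Class 5 held 1, 3 and 2 Inhba UMIs. Between class 1 and class 5 Inhba thus reached 10 CPM in class 1 alone, which favours its count among the 7. Tgfb1 was at 161, 106, 88.2, 62.95 and 35.4 CPM at 3 dpi and 127, 112, 70.4, 47.4 and 38.1 in the male-labelled 5 dpi section, and was flatter in the female-labelled section, with 109, 90.5, 83.3, 93.8 and 59.5. In the control, whose classes differ little in cardiomyocyte share, Tgfb1 was at 34.1, 36.4, 40.7, 27.2 and 36.1 CPM. Tgfb3, Ltbp2 and Ltbp3 had their highest level in class 2 or 3 and not in class 1 in each infarcted section. At 3 dpi the intervals of class 1 and of the highest class overlapped for all 3 genes. They were 59.3 to 81.4 and 80.3 to 108.6 CPM for Tgfb3, 160.7 to 195.7 and 184 to 225.5 CPM for Ltbp2, and 90.3 to 117.1 and 97.3 to 130.9 CPM for Ltbp3. Tgfbr1 was highest in class 2 in both 5 dpi sections, at 79.7 and 64.1 CPM, with intervals that overlapped those of class 1. Ltbp2 was at 595, 778, 1033, 732 and 158 CPM in the female-labelled section and at 723, 1081, 509.9, 64.8 and 27.1 in the male-labelled section. Tgfb3 peaked in the same classes of these sections, at 254 CPM in class 3 and 257 CPM in class 2, against 136 and 147 CPM in class 1. The cardiomyocyte share of these peak classes was a median of 0.662% and 0.530%. Ltbp4 ran the other way at 3 dpi, 143, 198, 212, 261 and 298 CPM, and in the female-labelled section, 177, 222, 388, 555 and 480.2 CPM. In the male-labelled section it was highest in the middle, 218, 437, 442, 318 and 234 CPM. Tgfb2 had no common order, with its highest class being 2, 4 and 2 in the 3 infarcted sections.

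**Figure D3:**
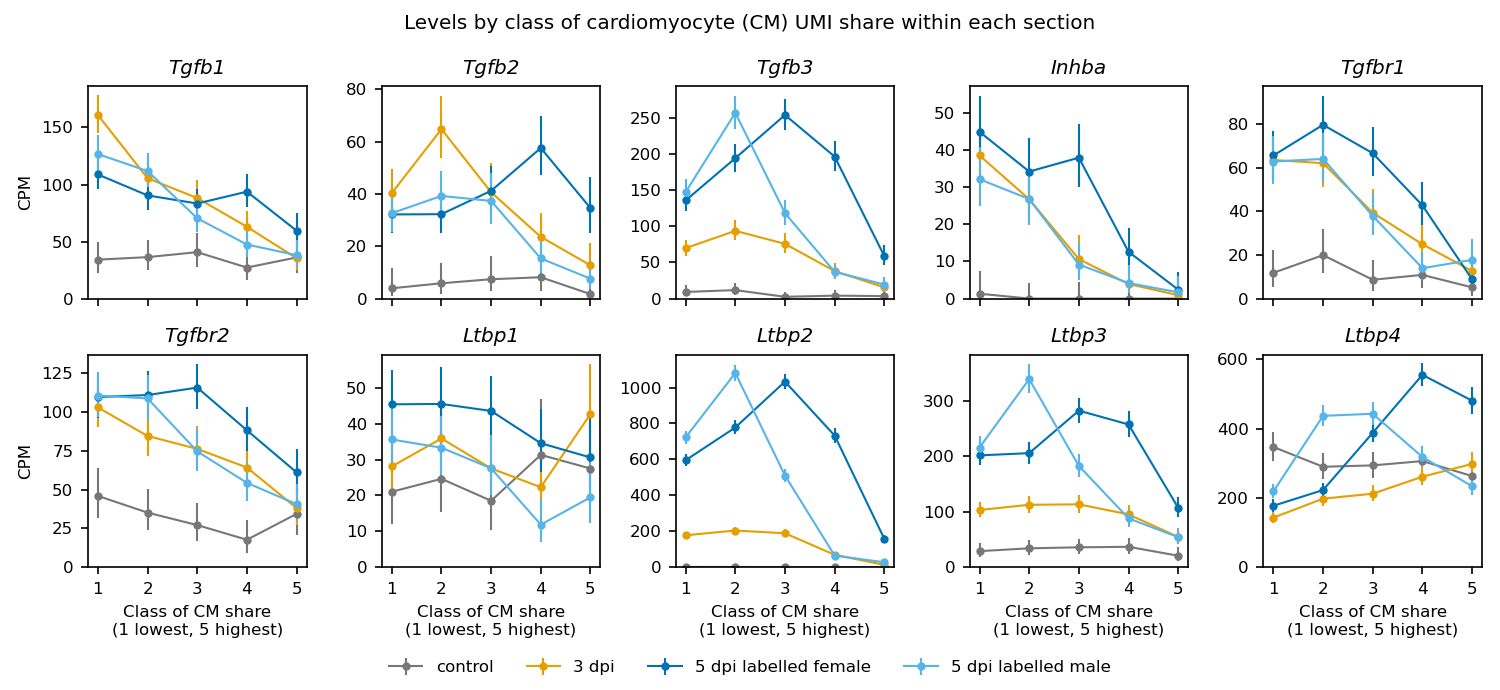
Level in CPM (y axis) of each gene in 5 classes of spots of equal size, ordered by their share of cardiomyocyte UMIs (x axis), for each section, with exact Poisson 95% intervals. Inhba and Tgfb1 are highest in class 1 of each infarcted section, and Ltbp4 is lowest there. Tgfb3, Ltbp2 and Ltbp3 peak in class 2 or 3 of each infarcted section, with intervals that overlap those of class 1 at 3 dpi.

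By distance from the edge of IZ, 8 bins ran from more than 6 steps inside to more than 6 steps outside. Inhba had its highest value in the innermost bin of each section, at 65.4, 18.4, 25.7, 15.6, 7.84, 1.57, 2.13 and 1.17 CPM at 3 dpi from inside to outside. At 5 dpi it was at 44.5 and 30.6 CPM in the innermost bin, against 15.4 and 26.6 CPM 1 to 2 steps inside. In the male-labelled section the intervals of these bins overlapped, 25.2 to 36.95 and 14.6 to 44.7 CPM. Tgfb3 was lower in the innermost bin than 3 to 4 steps inside, at 58.9 against 90.96 CPM at 3 dpi, 165 against 294 in the female-labelled section and 174 against 306 in the male-labelled section. Inhba was thus higher and Tgfb3 lower in the innermost bin than 3 to 4 steps inside in 3 of 3 sections. At 5 dpi the Inhba levels 3 to 4 steps inside rest on few UMIs. They were 15.2 CPM on 10 UMIs in the female-labelled section and 2.7 CPM on 1 UMI in the male-labelled one. Neutrophil markers were highest in the innermost bin too, at 567, 319 and 279 CPM against 182, 68.5 and 81.1 CPM 3 to 4 steps inside. Fibroblast markers were lower there in each section, at 9932, 26150 and 23230 CPM against 16620, 27340 and 24840 CPM 3 to 4 steps inside, and the part of both lists in the result was not tested. Ltbp2 stayed high up to the edge, at 196, 985 and 922 CPM 1 to 2 steps inside, and was at 116, 466 and 245 CPM 1 to 2 steps outside. Ltbp4 at 5 dpi was at 232 and 308 CPM in the innermost bin and at 588 and 531 CPM 1 to 2 steps inside. That edge bin was its highest in the male-labelled section, while the female-labelled one had 597 CPM 3 to 4 steps outside. At 3 dpi Ltbp4 was instead highest outside, at 334 CPM 5 to 6 steps from the edge.

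Setting IZ beside RZ asks which of the genes differ between infarcted and remote tissue of the same hearts. In IZ 8 of the 10 genes were higher, 1 was lower and 1 was not called, in edgeR's quasi-likelihood F test with Benjamini-Hochberg adjustment on zone sums of the 3 infarcted sections with the section as a block. The background was 28.2% of 9811 genes higher and 25.9% lower, and the median log2 fold change was 0.98 over the 10 genes and 0.08 over all. TMM scaling lowers log2 fold changes by 0.38 here, and values are given after it. Inhba rose from 1.5 to 29.1 CPM (3 dpi), 1.19 to 35.5 (female-labelled) and 3.22 to 27.3 (male-labelled), a log2 fold change of 3.22 (SE 0.40, adjusted p 6.69e-07). It passed the filter on low counts through IZ, since RZ held 2, 1 and 8 UMIs, which favours a call for it. Ltbp2 rose from 30.1 to 186 CPM (3 dpi), 112 to 809 (female-labelled) and 49.96 to 889 (male-labelled), a log2 fold change of 2.92 (SE 0.23, adjusted p 6.96e-10). The intervals of IZ and RZ did not overlap in any of the 3 sections for either gene. Tgfb3 rose from 21.1 to 78.9 CPM (3 dpi), 53.7 to 198 (female-labelled) and 25.8 to 196 (male-labelled), or 1.91 (SE 0.20, adjusted p 4.69e-08). The other ligands rose less, Tgfb1 by a log2 fold change of 0.85 (SE 0.18, adjusted p 0.000372) and Tgfb2 by 0.99 (SE 0.27, adjusted p 0.00416). The Tgfb2 change ranged widely between sections, with log2 CPM ratios of 2.07, 0.33 and 1.72, and its call was lost without the male-labelled section (log2 fold change 0.78). Of the receptors, Tgfbr1 rose by 1.60 (SE 0.21, adjusted p 1.33e-06) and Tgfbr2 by 0.69 (SE 0.15, adjusted p 0.000501). Ltbp3 rose by 0.97 (SE 0.19, adjusted p 0.00016). Ltbp1 had a log2 fold change of 0.12 (SE 0.24, adjusted p 0.706) and went from 34.6 to 30.7 CPM (3 dpi), 32.2 to 43.2 (female-labelled) and 14.9 to 35.3 (male-labelled). Ltbp4 fell by 0.82 on the log2 scale (SE 0.19, adjusted p 0.000934 in the same test), moving from 333 to 172 CPM (3 dpi), 473 to 300.2 (female-labelled) and 279 to 351 (male-labelled). This call was lost without TMM scaling, at a log2 fold change of -0.43, and without the section as a block, at -0.79, and the CPM of Ltbp4 was lower in IZ in 2 of 3 sections. In the same test all 10 macrophage, 7 of 9 fibroblast, 3 of 3 tested neutrophil and all 5 cycling markers were higher in IZ. All 12 cardiomyocyte genes were lower, which the zones set in advance, since IZ is defined by a low share of them. Of the other lists, 5 of 6 endothelial markers, 3 of 6 mural markers and all 4 erythroid markers were lower. The other way, 1 fibroblast marker was lower and 1 mural marker higher, and the part of these lists in these results was not tested.

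**Figure D4:**
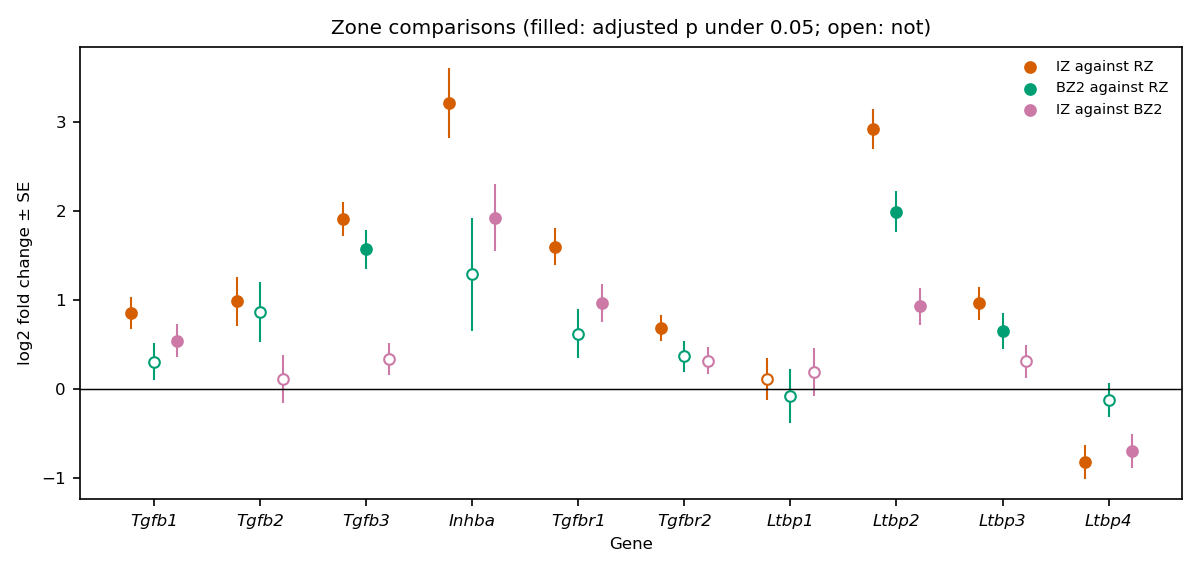
Log2 fold change (y axis) of each gene (x axis) for the zone pairs IZ/RZ, BZ2/RZ and IZ/BZ2 in edgeR's quasi-likelihood test on zone sums of 3 sections, with SE bars, filled where the Benjamini-Hochberg adjusted p was under 0.05. Tgfb3, Ltbp2 and Ltbp3 are the 3 genes filled for BZ2/RZ, while Inhba, Tgfbr1, Tgfb1 and Ltbp2 are filled above 0 for IZ/BZ2.

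The border zone comparisons ask on which side of the infarct edge the change lies. In BZ2, 3 of the 10 genes were higher than in RZ and 0 were lower, against 3.91% of 9811 genes higher and 4.73% lower, in edgeR's quasi-likelihood F test with Benjamini-Hochberg adjustment. Ltbp2 rose from 30.1 to 116 CPM (3 dpi), 112 to 466 (female-labelled) and 49.96 to 245 (male-labelled), a log2 fold change of 1.995 (SE 0.23, adjusted p 1.92e-05). Tgfb3 rose from 21.1 to 68.2 CPM (3 dpi), 53.7 to 157 (female-labelled) and 25.8 to 83.7 (male-labelled), or 1.57 (SE 0.22, adjusted p 0.000133). Ltbp3, at 0.65 (SE 0.20, adjusted p 0.0495), lay at the threshold, and its call was lost with DESeq2, without either 5 dpi section and at a higher limit for IZ. The other 7 genes were not called. Log2 fold changes were 0.31 for Tgfb1, 0.87 for Tgfb2, 0.63 for Tgfbr1, 0.37 for Tgfbr2 and -0.08 for Ltbp1, and those of the 7 ran from -0.13 (Ltbp4) to 1.29 (Inhba). Inhba was at 7.84, 10.3 and 0 CPM in BZ2, on 10, 7 and 0 UMIs, and 0 UMIs allowed up to 7.18 CPM by the upper end of the interval. Fibroblast markers summed to 8135, 12070 and 9298 CPM in BZ2 against 3660, 4807 and 3522 CPM in RZ, and 6 of 9 were called higher. Macrophage markers, 6 of 10 called higher, summed to 3228, 3593 and 2638 CPM in BZ2 and 1803, 2201 and 1679 CPM in RZ. Of the 12 cardiomyocyte genes 8 were lower, as were all 4 erythroid markers, and the part of these lists in the result was not tested. Without the section as a block none of the 3 genes passed the test, and 56 genes of all did. Without the female-labelled 5 dpi section 158 of all genes passed, against 848 in the 3 sections, with 2 of the 10 genes still called.

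Between IZ and BZ2, 4 of the 10 genes were higher in IZ and 1 was lower, against 15.8% of genes higher and 18.4% lower. Inhba held 10, 7 and 0 UMIs in BZ2, or 7.84, 10.3 and 0 CPM, near or below the 9.47 CPM limit of the filter on low counts. In IZ it was above that limit in each section, which favours a call for it. Inhba rose by a log2 fold change of 1.93 (SE 0.38, adjusted p 0.000378), Tgfbr1 by 0.97 (SE 0.21, adjusted p 0.00119), Ltbp2 by 0.93 (SE 0.20, adjusted p 0.00113) and Tgfb1 by 0.55 (SE 0.19, adjusted p 0.0281), in edgeR's quasi-likelihood F test with Benjamini-Hochberg adjustment. Tgfb1 went from 56.5 to 131 CPM (3 dpi), 85.02 to 94.9 (female-labelled) and 62.3 to 114 (male-labelled), and its call held in 6 of 11 alternatives. Among others it was lost without the 3 dpi section (log2 fold change 0.26), without the male-labelled section (0.48) and with DESeq2 (0.53). Ltbp4 fell by 0.69 on the log2 scale (adjusted p 0.00699, edgeR's quasi-likelihood test) and was lower in IZ in 3 of 3 sections. The Ltbp4 call was lost without TMM scaling, at -0.46, and without the female-labelled section, at -0.63. Without the section as a block 2 of the 10 genes were called. Tgfb3, at 0.34 (SE 0.18, adjusted p 0.155), and Ltbp3, at 0.32 (SE 0.19, adjusted p 0.203), were not called, but passed without TMM scaling, which lowers log2 fold changes by 0.23 here, and Tgfb3 also without the 3 dpi section. The Ltbp2 call was lost without the section as a block (0.96) and at a lower limit for IZ (0.52), and its log2 fold change ran from 0.51 to 1.58 over 11 alternatives. Tgfb2 at 0.12, Tgfbr2 at 0.32 and Ltbp1 at 0.19 were not called either. Tgfb3 and Ltbp3 were therefore called between BZ2 and RZ and not between IZ and BZ2, while Tgfb1, Inhba and Tgfbr1 were called between IZ and BZ2 and not between BZ2 and RZ. The difference between these patterns was not tested. All 10 macrophage markers, 3 of 3 tested neutrophil markers, 4 of 9 fibroblast markers and 4 of 5 cycling markers were higher in IZ than in BZ2. Of the mural markers 4 of 6 were lower and 1 was higher, and 3 of 6 endothelial markers were lower. All 12 cardiomyocyte genes were lower too, which the definition of IZ by their low share set in advance. The part of these lists in the result was not tested.

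Within IZ, spots were split into 3 classes of equal size by the share of the 9 fibroblast markers, to ask which genes went with fibroblast RNA where cardiomyocyte RNA was already low. In the fibroblast-rich class 5 of the 10 genes were higher and 0 were lower than in the fibroblast-poor class, against 4.97% of 10818 genes higher and 4.1% lower, in edgeR's quasi-likelihood F test with Benjamini-Hochberg adjustment with the section as a block. Tgfb3 rose from 62.6 to 101 CPM (3 dpi), 132 to 265 (female-labelled) and 133 to 272 (male-labelled), a log2 fold change of 0.93 (SE 0.09, adjusted p 1.47e-07). Ltbp2 rose from 139 to 244 CPM (3 dpi), 576 to 1064 (female-labelled) and 626 to 1198 (male-labelled), or 0.87 (SE 0.07, adjusted p 5.48e-09). All 4 LTBP genes were called, Ltbp3 at 0.61 (SE 0.10, adjusted p 0.000176), Ltbp1 at 0.47 (SE 0.14, adjusted p 0.0374) and Ltbp4 at 0.45 (SE 0.08, adjusted p 0.000658). Tgfb1 was at -0.20 (SE 0.10, adjusted p 0.231), Tgfb2 at -0.03 and the receptors Tgfbr1 and Tgfbr2 at 0.21 and 0.13, none of them called. Inhba was also not called, and its sections differed in direction, from 49.4 to 20.2 CPM (3 dpi), 30.4 to 40.7 (female-labelled) and 23.5 to 33.1 (male-labelled). At 3 dpi the poor class lay a mean of 6.3 steps inside the edge of IZ and the rich class 3.4 steps. These means were 18.2 and 17.2 steps in the female-labelled section and 14.1 and 13.15 in the male-labelled one. The part of distance from the edge in the result was not tested. The Ltbp1 call was lost in 7 of 11 alternatives, with an adjusted p of up to 0.742 (edgeR or DESeq2). Macrophage markers, of which 2 of 10 were lower in the fibroblast-rich class, were at 9417, 13190 and 12640 CPM in the fibroblast-poor class and 8797, 13250 and 11590 CPM in the fibroblast-rich class. Cardiomyocyte genes were 2.11%, 0.904% and 1.17% of UMIs in the poor class and 1.73%, 0.453% and 0.571% in the rich class, and all 12 were lower in the test. Mural markers, 2 of 6 called higher, were at 334, 374 and 403 CPM in the poor class and 357, 521 and 555 CPM in the rich class. Neutrophil markers, 2 of 4 tested called lower, were at 373, 337 and 207 CPM in the poor class and 237, 173 and 219 CPM in the rich class. All 4 erythroid markers were lower in the rich class. The part of these lists in the result was not tested. Without the section as a block 0 of 10818 genes passed edgeR's test, with 709 at an unadjusted p under 0.05. Without the female-labelled 5 dpi section 2 of the 10 genes (Tgfb3 and Ltbp2) and 216 of all genes passed, and without the male-labelled section 3 genes (Tgfb3, Ltbp2 and Ltbp3) and 457 of all did, against 981 with all 3 sections. The DESeq2 count over all genes was 446.

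The split of the same spots by the share of the 10 macrophage markers asks the same of macrophage RNA. In the macrophage-rich class 2 of the 10 genes were higher and 5 were lower, against 14.5% of 10785 genes higher and 15.2% lower, in the same test. Tgfbr1 rose from 50.8 to 71.7 CPM (3 dpi), 56.5 to 75.4 (female-labelled) and 50.4 to 65.1 (male-labelled), a log2 fold change of 0.37 (SE 0.11, adjusted p 0.0174). Tgfbr2 rose by 0.31 (SE 0.10, adjusted p 0.0313). Tgfb2 fell from 62.1 to 41.7 CPM (3 dpi), 53.7 to 28.8 (female-labelled) and 55.96 to 24.9 (male-labelled), a log2 fold change of -0.91 (SE 0.13, adjusted p 2.26e-05). Inhba fell from 27.5 to 20.6 CPM (3 dpi), 45.2 to 21.7 (female-labelled) and 38.1 to 14.6 (male-labelled), or -1.02 (SE 0.18, adjusted p 0.000216). In each of the 3 sections the macrophage-rich class was the lower one for both genes. The log2 fold change was -0.76 (SE 0.11, adjusted p 2.29e-05) for Ltbp4, -0.53 (SE 0.13, adjusted p 0.00487) for Ltbp1 and -0.38 (SE 0.10, adjusted p 0.00989) for Ltbp2. The Ltbp2 call rests on 2 sections, since the male-labelled section had 829.5 and 828 CPM. Tgfb1 was at 0.15 (SE 0.11, adjusted p 0.304), Tgfb3 at -0.19 and Ltbp3 at -0.28, none of them called. The receptor calls were lost with DESeq2 and without either 5 dpi section, and 2 of the 10 genes were called without the section as a block. Without the female-labelled section 3 of the 10 genes (Tgfb2, Inhba and Ltbp4) were called. Cardiomyocyte genes were 3.19%, 1.47% and 1.84% of UMIs in the macrophage-poor class and 0.888%, 0.181% and 0.165% in the rich class. Fibroblast markers were at 13400, 25630 and 22590 CPM in the poor class and 14550, 24380 and 21650 CPM in the rich class, with 2 of the 9 called higher and 2 lower. Neutrophil markers were higher in the rich class in 3 of 3 sections, at 384, 329 and 280 CPM against 122, 149 and 166 CPM. Mural markers, 4 of 6 called lower, were at 381, 535 and 488 CPM in the poor class and 311, 383 and 454 CPM in the rich class. Of the endothelial markers 3 of 6 were lower, as were all 4 erythroid markers. The rich class lay a mean of 5.37, 18.9 and 14.3 steps inside the edge of IZ, against 3.5, 14.3 and 11.7 steps for the poor class. The part of these lists and of distance from the edge in the result was not tested.

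**Figure D5:**
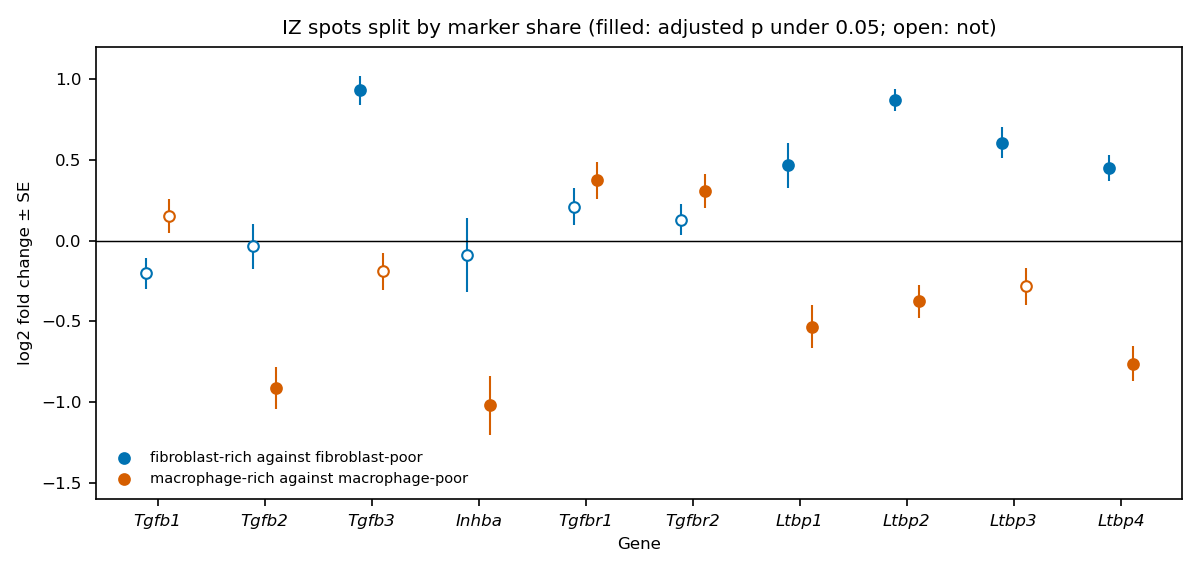
Log2 fold change (y axis) of each gene (x axis) between IZ spots rich and poor in fibroblast markers and between IZ spots rich and poor in macrophage markers, 3 sections, edgeR's quasi-likelihood test, with SE bars and filled points where the Benjamini-Hochberg adjusted p was under 0.05. The 4 LTBP genes and Tgfb3 lie above 0 in the fibroblast split, while Tgfb2, Inhba, Ltbp1, Ltbp2 and Ltbp4 lie below 0 and both receptors above 0 in the macrophage split.

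A list of 64 other genes of the pathway, in 7 groups by role, was followed in the same tests. In IZ against RZ, 59 were tested, of which 42 were higher, 6 lower and 11 not called, against the background of 28.2% higher and 25.9% lower. Of 12 tested activators of latent TGF-beta 11 were higher and 1 was lower. Thbs1, a thrombospondin that activates latent TGF-beta, rose by a log2 fold change of 3.09, from 18.1, 27.5 and 24.98 CPM in RZ to 158, 435 and 257 CPM in IZ, and Mmp9, a matrix protease, rose by 2.65. Mmp9 was at 5.27, 1.19 and 0.806 CPM in RZ and 25.65, 20.5 and 11.99 CPM in IZ. Itgb6, the epithelial integrin subunit that releases TGF-beta, fell by 2.24 on the log2 scale. Of the 12 targets 11 were higher and 0 lower, led by Fn1 (fibronectin) at 3.23 and Comp, a matrix protein, at 3.14, with Cilp not called. Col1a1, Col3a1 and Postn of this group are also in the fibroblast marker list. Of the 8 genes of the fibrillin scaffold, to which LTBPs attach, 7 were higher and 0 lower, with Efemp2 at 1.90 and Mfap4 at 1.52. Of the 5 matrix proteins that bind TGF-beta 3 were higher, with Fmod (fibromodulin) at 3.67 and Aspn (asporin) at 1.59, and Dcn (decorin) was called lower at -0.32. The Dcn call lay at the threshold, with an adjusted p of 0.0498 in edgeR's test, and follows the TMM shift of 0.38, since its CPM was higher in IZ than in RZ in both 5 dpi sections. All 3 tested genes of the activin branch were higher, Inhbb at 2.49 and Fstl1 at 1.45. Inhbb was at 2.26, 4.78 and 2.42 CPM in RZ and 17.2, 23.5 and 23.4 CPM in IZ, on 3, 4 and 6 UMIs in RZ. Of the 42 list genes called higher in IZ, 5 (Inhbb, Mmp9, Fmod, Tgif1 and Itgb3) were in RZ below the 9.47 CPM limit of the filter on low counts in all 3 sections, and 2 of the 6 called lower (Itgb6 and Acvr2a) were below it in IZ. These genes passed through other zones, which favours a call. Fmod was at 2.26, 8.36 and 6.04 CPM in RZ and 11.6, 131 and 136 CPM in IZ, and Tgif1 at 3.76, 7.16 and 5.24 CPM in RZ and 23.0, 25.6 and 22.1 CPM in IZ. The other receptors were split, 2 higher (Acvr1 at 0.93, Acvrl1 at 0.57), 3 lower and 2 not called of 7 tested. Of the 3, Bmpr2 was called at -0.39, which is about the TMM shift, and was at 41.4, 57.3 and 33.8 CPM in RZ and 41.7, 51.2 and 36.4 CPM in IZ. Tgfbr3, the co-receptor betaglycan, fell by 1.46, against the rise of Tgfbr1 and Tgfbr2, and Acvr2a by 1.32. Of the 12 SMADs and intracellular regulators 5 were higher, led by Tgif1 at 1.73 and Pmepa1 at 1.32, 1 was lower, Bambi at -0.55, and 6 were not called, namely Smad2, Smad3, Smad4, Smad6, Smad7 and Smurf2.

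Between BZ2 and RZ the list had 26 genes higher, 0 lower and 33 not called, against the background of 3.91% higher and 4.73% lower. Targets made up 10 of the 26, scaffold genes 5 and matrix binders 3, with Lox (lysyl oxidase) at 1.89 and Comp at 1.87, and activators made up 5, with Thbs1 at 1.36 and Itgb5 at 1.02. Fmod was at 2.98 and Aspn at 1.23, and Mfap4 and Mfap5 of the scaffold were both at 0.93. Fstl3, an activin-binding protein, and Fstl1, a follistatin-like protein, were at 1.06 and 0.81, and Pmepa1 was the only SMAD regulator called, at 0.82. None of the 7 other receptors was called. Between IZ and BZ2, 26 were higher, 3 lower and 30 not called, against 15.8% and 18.4% of all genes. Mmp9 and Itgb3 of the higher genes were below the filter limit in BZ2 in all 3 sections and Itgb6 of the lower ones in IZ, and between BZ2 and RZ Fmod was below it in RZ. Thbs1 (1.73) and Mmp9 (2.33) were among the 6 activators that were higher, Mmp9 from 7.84, 0 and 0 CPM in BZ2, and Itgb6 was lower at -2.26. Tgfbi at 2.30 and Fn1 at 1.52 led the 9 targets that were higher, and Cilp, a matrix protein of cardiac fibroblasts, was lower at -1.11. Cilp was thus highest in the border, at 161, 475 and 331 CPM in BZ2 against 83.6, 136 and 84.2 CPM in RZ and 94.6, 217 and 196 CPM in IZ. Of the remaining groups Tgif1 (1.08), Pmepa1 (0.50), Efemp2 (0.98), Fbn1 (0.42), Fmod (0.70), Bgn (0.50), Inhbb (1.97) and Fstl1 (0.64) were the named genes that were higher, and Bambi (-0.94), a decoy receptor of the pathway, was lower.

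In the fibroblast split, with the 5 list genes that are fibroblast markers left out, 21 of 54 tested genes were higher, 4 lower and 29 not called, against 4.97% and 4.1% of all genes. All 8 scaffold genes were higher, led by Mfap4 at 1.27 and Fbn2 at 1.03, as were the 3 matrix proteins that bind TGF-beta, led by Fmod at 1.49 and Aspn at 1.29. Of the 9 targets 5 were higher, Comp at 1.18 and Cilp at 1.002 first, and 2 were lower, Tgfbi (-0.31) among them. Mmp2 (1.04) was the 1 activator that was higher, and Mmp9 (-1.09) and Nrros (-0.48) were lower. Bmpr2 (0.46), Acvrl1 (0.43), Pmepa1 (0.29) and Fstl1 (0.65) were also higher. In the macrophage split 6 of 59 tested genes were higher, 21 lower and 32 not called, against 14.5% and 15.2% of all genes, so that the share of the list that was higher lay below the background. Nrros, which holds latent TGF-beta on myeloid cells in place of an LTBP, had a log2 fold change of 1.67 and was at 63.5, 66.8 and 66.6 CPM in IZ, with 14.3, 25.1 and 14.9 CPM in RZ. Mmp9 (1.06), Tgfbi (0.84), Tgif1 (0.52), Lum (0.33) and Col3a1 (0.20) were the other 5. Lrrc32, the counterpart of Nrros on platelets and regulatory T cells, was lower at -0.59, as were Itgb3 (-0.52), Eng (-0.38), Bambi (-1.17), Pmepa1 (-0.46), Cilp (-1.91) and Ccn2 (-1.03). Mfap5 (-0.82), Fbln5 (-0.47), Fmod (-0.91), Aspn (-0.29), Fstl3 (-0.91) and Fstl1 (-0.24) were lower too.

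The genes nearest in pattern were ranked for each of the 10 by Pearson correlation of log2(CPM + 1) over 13 points, the control and 4 zones of 3 sections, among 5665 genes with a mean of at least 20 CPM. The points of 1 section share a library, and all points share the gradient from cardiomyocyte to infarct RNA, so the values are given as a description. Ltbp2 was near to Col8a1 and C1qtnf6, with correlations of 0.99 each. Tgfb3 was near to Aspn, the asporin gene of the pathway list, at 0.97. Ltbp3 was nearest to Dkk3, Serpinf1 and Pdgfrl (0.98 to 0.99). Among the 10 genes themselves, Ltbp2, Ltbp3 and Tgfb3 were nearest to each other, at 0.96 for each pair. Tgfb1 was nearest to Csk, Ppp1r18 and Zeb2 (0.95 each), Tgfb2 to Bcr, Dpysl3 and Arhgef40 (0.95 to 0.96) and Inhba to Kctd12, Ppp2r5d and Dhrs1 (0.94 to 0.96). Tgfbr1 was nearest to Rpl14, Mfsd10 and Vmp1 (0.96 to 0.98) and Tgfbr2 to Chpf2, Gnb2 and P4ha3 (0.96 to 0.97). Ltbp4 had lower values, with Lama2, Cxxc5 and Dcn (0.80 to 0.82), and Ltbp1 was nearest to Wdr82 and Dalrd3, at 0.91 and 0.90, and a gene listed by identifier alone. Ltbp4 had a correlation of -0.39 to 0.29 with each of the other 9 genes.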

How the data were processed

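Visium sections of 4 mouse hearts were analysed. The deposited values are UMI counts without normalization, 1 per gene and spot, which the authors made with Space Ranger 1.3.1, per the file headers. The labels name mm10 as the build, and the methods describe a reference based on Ensembl with a GFP sequence added. The authors marked spots under tissue by hand, and replicates were not pooled. Spots needed 500 UMIs and 250 genes or more, and no more than 50% of mitochondrial UMIs. Spot barcodes name array positions that all capture areas share. The UMIs of 13 mitochondrially encoded genes were left out of CPM.

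A spot counted as low where 12 cardiomyocyte genes took a share of its UMIs under 0.5 times the 90th percentile of their section, and connected patches of at least 10 low spots made up IZ. UMIs summed per section and spot class were compared with edgeR 4.0.16 (quasi-likelihood test, TMM, default filter on low counts, section as a block, Benjamini-Hochberg adjustment over all genes tested, threshold 0.05) in R 4.3.3, and DESeq2 1.42.0 was an alternative. The scripts were tested on simulated data. Other alternatives left out a section, the block, TMM or the filter, or moved the zone limits and classes. Section folds against the control (at least 2-fold, 10 CPM in at least 1 section) have no test. The text names all 10 genes in each tested comparison, up to 2 called genes at each end of each pathway group, and the 3 genes nearest in pattern. Some items of the last 2 kinds are not reported here. Bmpr2 and Itgb3 were named in part after their values were seen. The members and lists were chosen with earlier results of these data known. Figures and counts used Python 3.11.15, NumPy 2.4.6, SciPy 1.17.1 and pandas 2.3.3.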

Additional observations from a re-analysis of the deposited data

Results flagged for a closer look

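The male-labelled 5 dpi matrix holds 623 spots not marked as lying under tissue, which entered no comparison. In these spots the intervals of 8 of the 10 genes lay above those of the control, against a background of 42.0% of 9005 genes with at least 10 CPM in 1 of the 2 sets. Tgfb2, Tgfb3, Inhba and Ltbp2 reached that level in the unmarked spots alone, which favours their count among the 8. Tgfb1 was at 78.5 CPM, Tgfb2 at 33.6 CPM, Tgfb3 at 96.01 CPM and Inhba at 43.97 CPM. Tgfbr1 was at 49.4 CPM and Tgfbr2 at 93.3 CPM. Ltbp2 was at 396 CPM and Ltbp3 at 189.8 CPM. Ltbp1, at 34.5 CPM (27.3 to 43.2), overlapped its control interval, which reached 29.9 CPM, and Ltbp4 was at 269.6 CPM (248.5 to 292) against 301 CPM in the control. Inhba was higher there than in the IZ of the same section, at 27.3 CPM, and Ltbp2 was lower than its 889 CPM in IZ.

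For Ltbp1 the log2 CPM ratio of IZ over RZ was -0.18 at 3 dpi and 0.42 and 1.25 at 5 dpi, so that the ratios lay on either side of 0. The Ltbp1 intervals of IZ and RZ overlapped at 3 dpi (25.99 to 35.9 and 25.4 to 46.2 CPM) and in the female-labelled section (38.6 to 48.1 and 21.3 to 46.9 CPM), so that no difference at 3 dpi is shown. For Ltbp4 the log2 CPM ratio of BZ2 over RZ was -0.57 at 3 dpi and 0.08 and 0.66 at 5 dpi. With 1 section at 3 dpi neither difference between time points was tested.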

How the results depend on the processing

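Over the alternatives, 475 of 550 fold changes of the 10 genes kept their direction and their side of the threshold, 51 were no longer called, 12 were newly called and 12 turned direction. Of 220 other values 181 were rated the same, 36 were rated as moved and 3 turned direction. Counts were rated by their ratio to the count of the main setting, and the remaining values by their spread. The cause was not tested. Without the section block 0 of the 10 genes and 56 of all genes were called for BZ2 over RZ, 2 of the 10 for IZ over BZ2, 0 and 0 for the fibroblast split, and 2 and 1439 for the macrophage split. DESeq2 called 446 genes in the fibroblast split, and 4 of the 10 and 1890 of all genes in the macrophage split. A zone limit of 0.4 gave 3 of the 10 genes for IZ over BZ2, a limit of 0.6 gave 533 genes for BZ2 over RZ, and 2 equal classes in place of 3 gave 604 genes in the fibroblast split.

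Leaving out 1 section at a time gave 158 to 704 genes for BZ2 over RZ, 2130 to 2926 genes for IZ over BZ2, 2 to 4 of the 10 genes and 216 to 1268 of all genes in the fibroblast split, and 3 to 7 of the 10 genes in the macrophage split. It also turned values that had not been called. Ltbp1 ranged from -0.28 to 0.49 (log2, IZ over RZ), from -0.26 to 0.13 (BZ2 over RZ) and from -0.15 to 0.36 (IZ over BZ2). Ltbp4 ranged from -0.41 to 0.23 (BZ2 over RZ), Tgfb2 from -0.36 to 0.53 (IZ over BZ2) and from -0.1 to 0.084 (fibroblast split), and Inhba from -0.47 to 0.42 (fibroblast split). The mean log2 ratio of Ltbp4 over the control ranged from -0.18 to 0.18. Without TMM scaling Ltbp4 and Ltbp1 turned to 0.032 and 0.087 (BZ2 over RZ). A limit of 0.4 turned Ltbp1 to 0.03 (BZ2 over RZ) and Tgfb2 to -0.25 (IZ over BZ2), and spots at least 3 steps inside gave 0.24 for Tgfb2 in the fibroblast split. Over the control, Ltbp1 turned to a mean log2 ratio of -0.008 with TMM scaling and Ltbp4 to 0.43 with CPM over all UMIs. Depth limited Inhba most, with 1 UMI in the control and 1 to 8 in RZ.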
